A study of Mus musculus with 11 samples.

Results

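The genes described here were the 8 aquaporins *Aqp1*, *Aqp2*, *Aqp3*, *Aqp4*, *Aqp5*, *Aqp6*, *Aqp7* and *Aqp11* and the vasopressin V2 receptor gene *Avpr2*, chosen by symbol, 9 of the 28692 genes counted in mouse kidney cells by 10x Chromium single-cell RNA-seq. Control libraries came from kidneys of naive mice (5 libraries, in 3 sets labelled Ctrl with 1 library, N with 2 and AN with 2). Injured libraries came from kidneys taken 28 days after unilateral ischemia-reperfusion (UIR, 3 libraries), in which the left renal pedicle was clamped for 30 minutes at 37 °C, or after unilateral ureteral obstruction (UUO, 3 libraries), in which the left ureter was tied for good. All groups were male C57Bl/6 mice, per the study's methods, with no genetic change named. The methods give 10 weeks as the age at injury and describe the naive mice as of the same age. The controls were naive, not sham-operated, and kidneys were dissociated with a cold-active protease. The study's methods list as many animals as libraries in each group, but the labels do not tie libraries to animals, so p-values measure the spread between libraries, and the labels assign no set to the injured libraries, so set and injury cannot be told apart.

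Aquaporins are membrane channels that let water, and for some members glycerol, cross the cell along an osmotic gradient. In the collecting duct, vasopressin binds its V2 receptor on the basolateral side of principal cells and raises cAMP, protein kinase A then moves AQP2 from vesicles to the apical membrane, and water leaves the cell through AQP3 and AQP4 on the other side. AQP1 is the constitutive water channel of the proximal tubule, the descending thin limb and the descending vasa recta, and the remaining kidney aquaporins belong to intercalated cells or proximal tubule cells.

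In the collecting duct, the genes of water reabsorption lay lower in injured than in naive kidneys. Within cluster PC1, which held the principal cell markers and nearly all control principal cell-like cells, *Aqp2* fell by 1.24 on the log2 scale in UIR. In principal cell-like cells pooled over 3 clusters, where the injured cells lay largely in the clusters other than PC1, *Aqp2* fell from 8785 ± 1622 CPM (UMI counts scaled to a pool total of 1000000, mean ± SD, 5 control libraries) to 1795 ± 740.4 in UIR and 122 ± 37.9 in UUO (3 libraries each), and *Aqp3*, *Aqp4* and *Avpr2* fell with it in both injuries. In the connecting tubule-like cells of the same UIR kidneys, none of *Aqp2*, *Aqp3* and *Avpr2* passed the test. These values depended on the processing. With cells gated by their own markers *Aqp2* was -1.26 there and did not pass, and *Aqp3* was called higher with no filter on low counts. The *Aqp1* gene did not pass the test in proximal tubule-like cells in either injury, while it fell in thin limb-like cells of UIR kidneys.

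Several of these genes are neighbours in the genome (GRCm38). *Aqp2* (ENSMUSG00000023013, chr15:99579055-99584547, plus strand), *Aqp5* (ENSMUSG00000044217, chr15:99590782-99594829, plus) and *Aqp6* (ENSMUSG00000043144, chr15:99601400-99605477, plus) lie side by side, and *Aqp3* (ENSMUSG00000028435, chr4:41092722-41098183, minus) and *Aqp7* (ENSMUSG00000028427, chr4:41033074-41048139, minus) lie close together. *Aqp1* (ENSMUSG00000004655) is at chr6:55336432-55348555 (plus), *Aqp11* (ENSMUSG00000042797) at chr7:97724006-97738289 (minus) and *Avpr2* (ENSMUSG00000031390) at chrX:73892102-73895502 (plus). *Aqp4* is ENSMUSG00000024411.

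The promoters of *Aqp2*, *Aqp3* and *Avpr2* are shown because these genes were lower together in the collecting duct. Each is the 250 bases before the RefSeq start in GRCm38.p6, read 5′ to 3′ on the gene's strand, and capitals mark a cAMP response element (CRE) half-site (TGACG or its reverse complement CGTCA) or a GATA motif (AGATAA or its reverse complement TTATCT).
Aqp2 (chr15:99578806-99579055, plus): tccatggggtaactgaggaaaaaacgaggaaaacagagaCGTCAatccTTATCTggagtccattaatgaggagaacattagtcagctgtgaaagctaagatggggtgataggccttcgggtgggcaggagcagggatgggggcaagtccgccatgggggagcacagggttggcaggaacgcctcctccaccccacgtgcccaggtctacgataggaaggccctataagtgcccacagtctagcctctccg
Aqp3 (chr4:41098184-41098433, minus): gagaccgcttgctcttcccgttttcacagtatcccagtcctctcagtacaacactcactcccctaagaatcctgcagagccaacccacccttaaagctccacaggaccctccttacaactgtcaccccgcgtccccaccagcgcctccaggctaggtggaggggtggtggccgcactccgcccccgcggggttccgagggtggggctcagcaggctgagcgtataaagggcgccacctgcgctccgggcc
Avpr2 (chrX:73891852-73892101, plus): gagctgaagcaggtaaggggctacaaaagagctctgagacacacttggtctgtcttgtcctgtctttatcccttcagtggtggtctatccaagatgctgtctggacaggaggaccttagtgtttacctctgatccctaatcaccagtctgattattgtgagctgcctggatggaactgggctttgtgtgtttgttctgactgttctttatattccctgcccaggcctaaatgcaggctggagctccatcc
The *Aqp2* window held a CRE half-site with its first base at -211 and a GATA motif at -202, both on the opposite strand and not overlapping, counted from -1 at the base before the start. Neither motif was found in the *Aqp3* and *Avpr2* windows. Searched on both strands, a CRE half-site was present in 17.8% and the GATA motif in 9.99% of all 32851 windows of this length, and the full CRE TGACGTCA, found in 1.55% of them, was in none of the 9 windows of the 8 members matched to the table. Among the other members a single *Aqp7* window held a GATA motif (first base at -132). These matches are letters in a window and carry no measurement.

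Libraries held 91920461 to 110914244 UMIs in control, 82522753 to 117043590 in UIR and 49503312 to 60918546 in UUO over all barcodes, and 10251, 16938 and 13368 cells were kept. Between 57.0% and 78.9% of the called barcodes of a control library were left out for more than 30% mitochondrial UMIs, against 23.8% to 37.2% in UIR and 3.15% to 8.01% in UUO, and 425 kept cells (1.05%) shared a barcode with another library. Cells were clustered without the 9 genes, without the pathway lists used below and without mitochondrial and hemoglobin genes, and clusters were named "-like" from marker lists, which left 6258 cells unnamed.

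Principal cell-like (PC-like) cells made up 3 clusters that the groups filled unequally. Cluster PC1 held 279 control, 167 UIR and 10 UUO cells, PC2 held 0, 180 and 388, and PC3 held 5, 27 and 56. PC1 was led by *Fxyd4*, *Hsd11b2* and the sodium channel subunit genes *Scnn1g* and *Scnn1b*, all on the PC marker list. No gene of that list was among the 10 leading genes of PC2, led by *Spink12*, *Sprr2f* and *Cxcl5*, or of PC3, led by *Aldh1a3*, *Sbspon* and *Spink8*, while *Spink8*, which stood on the list for type B intercalated cells (IC-B), was among them in both. *Spink8* measured 182 CPM in PC1, 1331 in PC2, 4397 in PC3 and 993 in IC-B-like cells. The other IC-B markers (*Slc26a4*, *Slc4a9*, *Insrr*, *Hmx2*) measured 0 to 1.01 CPM each in PC2 and PC3 and 308 to 1160 in IC-B-like cells, and *Fxyd4* measured 5815, 1199 and 3327 CPM in PC1, PC2 and PC3 against 34.6 in IC-B-like cells. PC2 and PC3 kept the PC name only because *Spink8* was not counted against it, by a naming rule described with the processing. Because leading genes and list disagree for PC2 and PC3, results are given cluster by cluster, and the values called PC-like below are those of the 3 clusters summed.

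The summed PC markers of the PC-like pool ran from 11938 to 14259 CPM in control, from 5368 to 6977 in UIR and from 2900 to 4430 in UUO libraries. Within PC1 they ran from 11964 to 14259 in control and from 8791 to 12052 in UIR. Proximal tubule markers summed to 93.4 to 258 CPM in the control PC-like pools, 41.3 to 103 in UIR and 4.73 to 16.5 in UUO. The 8 immune markers, of which *Cd3g*, *Cd79a* and *S100a9* were at 0 in control, summed to 17.3 to 73.1 CPM in control, below the 273 to 323 of UIR and the 267 to 731 of UUO, and within PC1 to 17.3 to 77.1 in control and 221 to 244 in UIR. The 4 markers of frTEC, the study's term for failed-repair tubular epithelial cells, of which *Vcam1* was at 0 in control, ran from 65.7 to 116 CPM in control, from 153 to 427 in UIR and from 287 to 535 in UUO, and within PC1 from 65.7 to 120.5 in control and from 130.1 to 244 in UIR. Markers common to intercalated cells were lower, at 712 to 944 CPM in control, 240.1 to 301 in UIR and 96.3 to 136 in UUO, and within PC1 at 712 to 954 and 490.3 to 585, where the thin limb list, with only *Cryab* above 0, ran from 526 to 745 in control and 293 to 322 in UIR. Connecting tubule markers, of a class that also expresses *Aqp2*, *Aqp3* and *Avpr2*, ran from 685 to 1010 CPM in control, 720 to 988 in UIR and 218 to 662 in UUO. IC-B markers ran from 103 to 197 CPM in control, 1022 to 1902 in UIR and 750 to 2495.5 in UUO, and within PC1 from 101 to 197 in control and 157 to 397 in UIR. The part of these lists in the differences was not tested.

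The 9 genes were tested at 14 gene and class places where each is known to be expressed, with edgeR's quasi-likelihood test on UMIs summed per library and class and Benjamini-Hochberg adjustment over all genes of the class (threshold 0.05). For UIR against control 13 places could be fitted, 12 passed the filter on low counts and 5 were lower, none higher, against 14.1% of all gene tests called in those classes in either direction. For UUO 9 places were fitted and 4 were lower, against 23.4% called overall. For UUO against UIR 10 were fitted and 3 were lower, against 1.54%. These counts changed under some of the other settings, given below.

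**Figure D1:**
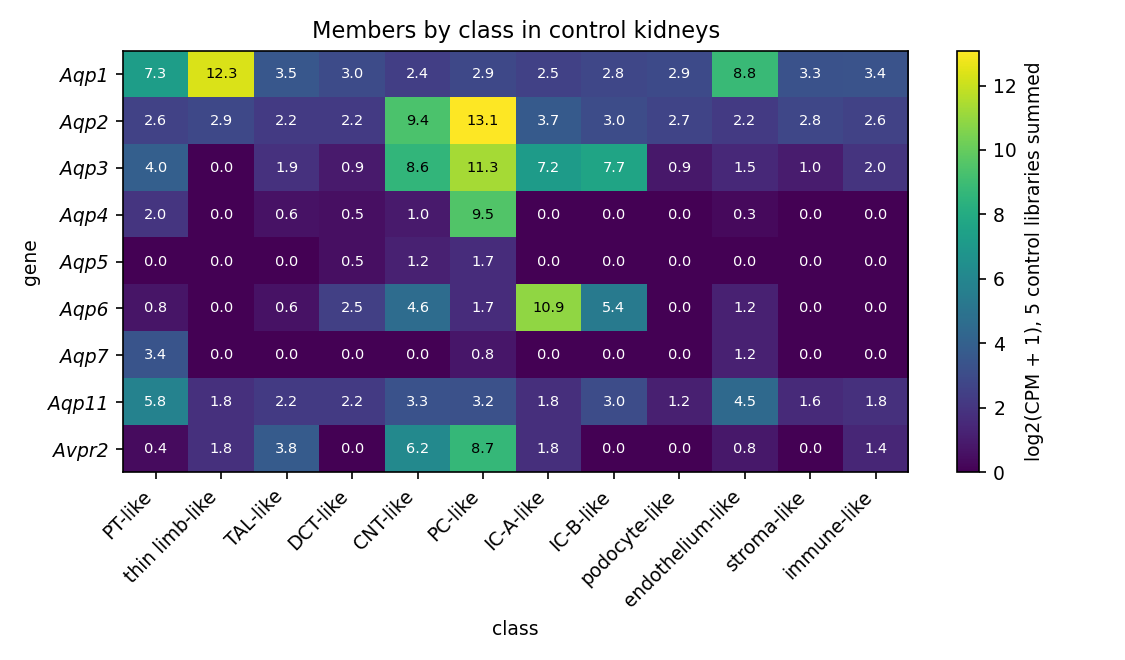
Heat map of log2(CPM + 1) of the 9 genes (rows) in 12 classes of control cells (columns), with UMIs pooled over the 5 control libraries. *Aqp2*, *Aqp3*, *Aqp4* and *Avpr2* are highest in PC-like cells, *Aqp1* in thin limb-like cells, *Aqp6* in type A intercalated-like cells, and *Aqp7* and *Aqp11* in proximal tubule-like cells.

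In control kidneys, the level of *Aqp2* in every library was higher in PC-like than in connecting tubule-like (CNT-like) cells, at 701 ± 274 CPM (n = 5), and higher there than in any other class. *Avpr2* followed the same order, with thick ascending limb-like (TAL-like) cells at 13.1 ± 4.05 CPM below CNT-like cells at 74.1 ± 32.5 and PC-like cells at 408 ± 56.9. *Aqp3* was highest in PC-like cells at 2606 ± 251 CPM, while its levels in CNT-like (375 ± 136) and IC-B-like cells (169 ± 112) overlapped between libraries. *Aqp4* was highest in PC-like cells at 730 ± 183 CPM. The levels of *Aqp1* in endothelium-like and proximal tubule-like (PT-like) cells overlapped, both below thin limb-like cells.

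*Aqp2* encodes the vasopressin-regulated apical channel. In PC1 the control libraries measured 5546, 10069, 9039, 8935 and 9644 CPM and the UIR libraries 3809, 3354 and 4198, so every UIR library lay below every control library. The difference was -1.24 (log2 fold change, SE 0.16, edgeR adjusted p = 4.06e-06), where 3.74% of the genes tested in PC1 were called lower. The 3 UUO pools of PC1 held 1, 5 and 4 cells and measured 5133, 1326 and 2162 CPM, too few cells for a test. In PC2, which had no control cells, *Aqp2* measured 307, 111 and 42.2 CPM in UIR and 84.3, 22.8 and 22.1 in UUO. The ranges in PC2 overlapped, and UUO against UIR was -1.93 (SE 0.62, edgeR adjusted p = 0.944, unadjusted p = 0.00864).

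PC3 was small in every library. Its control pools, of 2 cells in replicate 1 and 3 cells in replicate 5, are not given here for *Aqp2*. Its UIR pools of 18 and 9 cells measured 6595 and 4096 CPM of *Aqp2*, and its UUO pools of 11 and 45 cells measured 119 and 276. No library of UUO approached the UIR values in PC3, but the pools of fewer than 20 cells were not tested.

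Over the 3 clusters summed, *Aqp2* measured 6022, 10069, 9039, 8935 and 9859 CPM in control, 1092, 2568 and 1727 in UIR and 157, 127 and 81.9 in UUO, with no overlap between groups. *Aqp2* fell by 2.37 on the log2 scale in UIR (SE 0.27, edgeR adjusted p = 3.27e-06) and by 6.26 in UUO (SE 0.33, edgeR adjusted p = 6.35e-11), where 9.92% and 17.1% of the genes tested in PC-like cells were called lower. UUO against UIR was -3.89 (SE 0.31, edgeR adjusted p = 4.97e-07), with 1.78% of genes called lower. The share of the PC-like cells that lay in PC1 moved with these values, from 95.6% to 100% in control to 30.2%, 57.0% and 41.1% in UIR and 0.746%, 2.11% and 4.82% in UUO, and its part in the pooled difference was not tested beyond the cluster values above.

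Counted per cell, *Aqp2* averaged 81.5 ± 17.1 UMIs in control, 23.4 ± 6.39 in UIR and 2.07 ± 0.241 in UUO PC-like cells, while the median total UMIs per cell ran from 5543 to 11206.5 in control, from 8602 to 14658.5 in UIR and from 13820 to 19843 in UUO libraries. The median mitochondrial share moved the other way, from 16.8% to 22.8% in control to 11.5% to 13.5% in UIR and 10.0% to 11.2% in UUO, and its part in the differences was not tested.

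**Figure D2:**
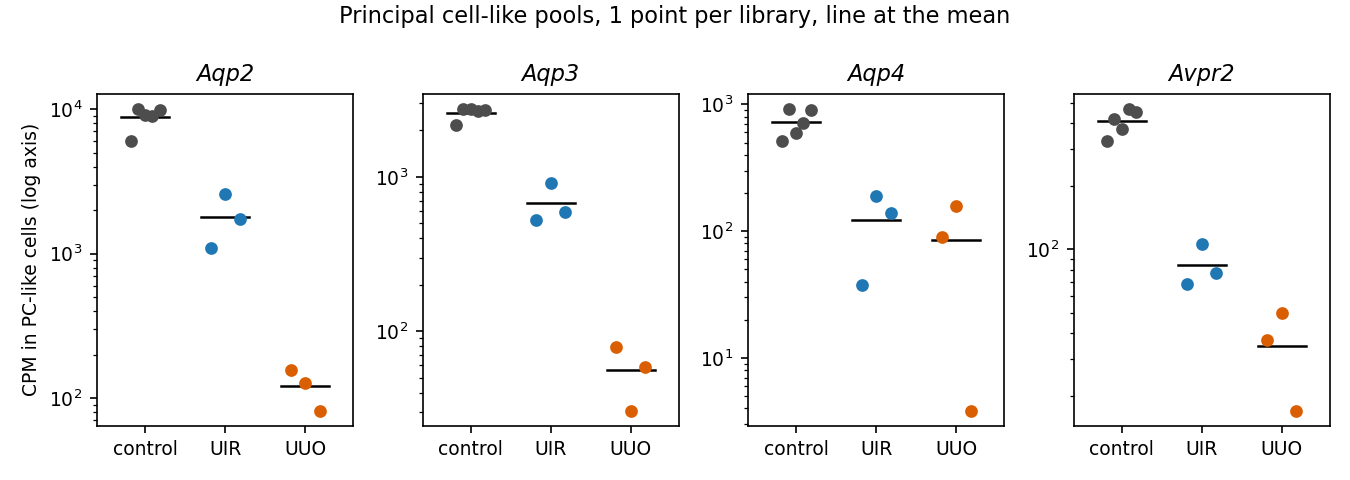
CPM of *Aqp2*, *Aqp3*, *Aqp4* and *Avpr2* in PC-like pools on a log axis, 1 point per library, with a line at the group mean. For *Aqp2*, *Aqp3* and *Avpr2* every UUO library lies below every UIR library and every UIR library below every control library, while for *Aqp4* UIR and UUO overlap.

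*Aqp3* encodes a basolateral channel for water and glycerol. In PC1 it measured 2233 to 2809 CPM in control (2641 ± 234, n = 5) and 1662, 1619 and 1762 in UIR (1681 ± 73.2). The groups did not overlap, and the difference was -0.69 (SE 0.12, edgeR adjusted p = 0.000289). In PC2 it measured 198, 88.1 and 60.9 CPM in UIR and 54.9, 24.6 and 32.2 in UUO, ranges that did not overlap but whose difference of -1.72 (SE 0.40) did not pass the adjustment (edgeR adjusted p = 0.341, unadjusted p = 0.000851). Over the 3 clusters it measured 2163, 2738, 2766, 2658 and 2705 CPM in control, 526, 911 and 590 in UIR and 79.1, 30.6 and 58.3 in UUO. It fell by 2.02 on the log2 scale in UIR (SE 0.24, edgeR adjusted p = 6.61e-06) and by 5.67 in UUO (SE 0.30, edgeR adjusted p = 6.35e-11), and was lower in UUO than in UIR (-3.65, SE 0.29, edgeR adjusted p = 4.97e-07).

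*Aqp4* encodes the second basolateral water channel of principal cells. In PC1 its UIR libraries measured 85.1, 129 and 125 CPM, below all control libraries, which ranged from 370 to 926. The difference was -2.61 (SE 0.23, edgeR adjusted p = 5.39e-09). In PC3 it measured 835 and 722 CPM in UIR, above PC1 and PC2 of the same libraries, and 549 and 551 in UUO, although 3 of these 4 pools held fewer than 20 cells and no test was made. The control pools of PC3, of only 2 and 3 cells, measured 3187 and 1829 CPM, above all 4 injured pools. In PC2 it measured 23.7, 9.97 and 12.99 CPM in UIR and 6.24, 9.25 and 2.83 in UUO, ranges that did not overlap, and the difference of -1.35 (SE 0.44) did not pass the adjustment (edgeR adjusted p = 0.944, unadjusted p = 0.00877).

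Over the 3 clusters, *Aqp4* measured 516, 926, 591, 711 and 905 CPM in control, 37.4, 189.7 and 139.7 in UIR and 90.6, 159 and 3.85 in UUO. Both injuries lay below control without overlap, and they overlapped each other. It fell by 2.65 on the log2 scale in UIR (SE 0.57, edgeR adjusted p = 0.00193) and by 3.16 in UUO (SE 0.58, edgeR adjusted p = 0.000233), and UUO against UIR was -0.51 (SE 0.59, edgeR adjusted p = 0.800). The UUO library at 3.85 CPM (replicate 3) had no cell in PC3, where the other UUO libraries had 8.21% and 19.0% of their PC-like cells. Without that library UUO against UIR was 0.02.

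*Avpr2* encodes the V2 receptor itself. In PC1 it measured 339 to 470 CPM in control (413 ± 56.9) and 183, 158 and 153 in UIR (165 ± 16.0), without overlap, and the difference was -1.39 (SE 0.15, edgeR adjusted p = 3.04e-07). In PC2 it measured 28.2 ± 7.83 CPM in UIR and 21.4 ± 7.04 in UUO, which overlapped (-0.49, SE 0.28, edgeR unadjusted p = 0.105). Over the 3 clusters it measured 330, 417, 373, 470 and 451 CPM in control, 68.5, 106 and 76.8 in UIR and 36.97, 49.5 and 17.04 in UUO, with no overlap between groups. It fell by 2.37 on the log2 scale in UIR (SE 0.24, edgeR adjusted p = 8.23e-07) and by 3.61 in UUO (SE 0.25, edgeR adjusted p = 2.70e-09). It was lower in UUO than in UIR (-1.25, SE 0.26, edgeR adjusted p = 0.0125), a call that was lost without UIR replicate 2 (-1.03, edgeR adjusted p = 0.103).

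The 4 differences in PC1 were called by edgeR with each of the 8 control and UIR libraries left out in turn. In PC2 none of these 4 genes was called between UUO and UIR by edgeR, where 0.101% of genes were called in either direction. Unadjusted p was under 0.05 for 3 of the 4, a looser threshold for which the share of all genes is not given. PC1 cells of UIR libraries had median totals of 7867 to 9473 UMIs against 5543 to 10928 in control, and mitochondrial shares of 12.4% to 16.0% against 16.8% to 22.8%, and the part of these in the differences was not tested.

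**Figure D3:**
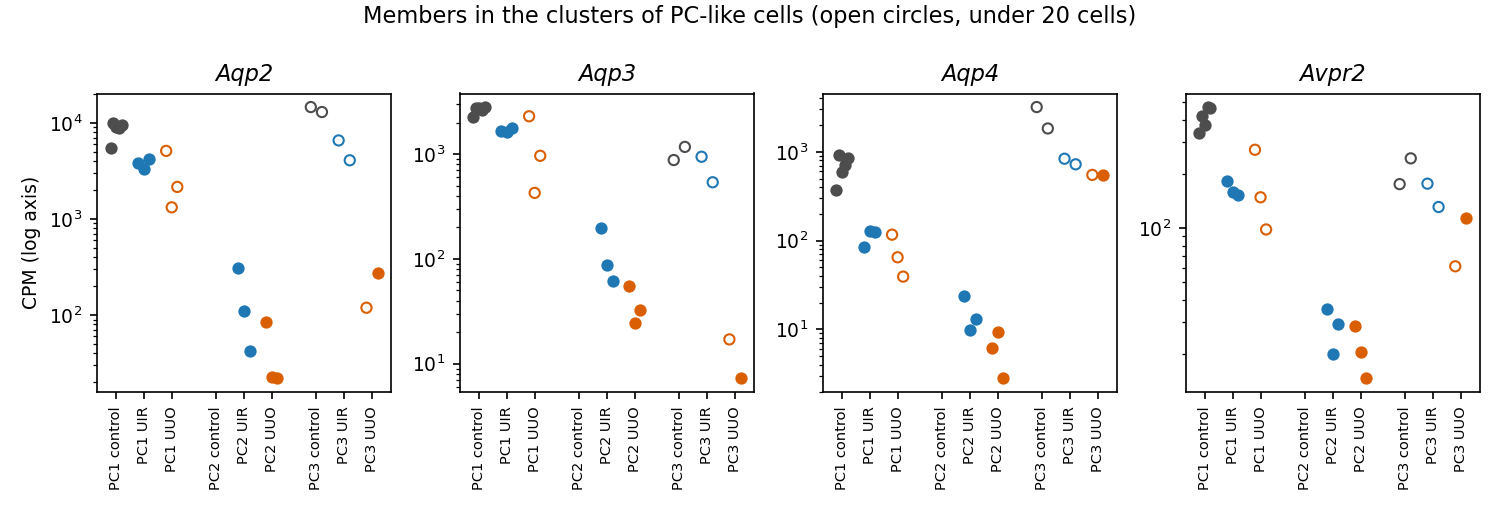
CPM of *Aqp2*, *Aqp3*, *Aqp4* and *Avpr2* in clusters PC1, PC2 and PC3 on a log axis, 1 circle per library, coloured by group, with open circles for pools of fewer than 20 cells. UIR lies below control within PC1 for all 4 genes, and PC2, which holds no control cell, lies below PC1 in UIR.

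The share of PC-like cells with at least 1 UMI of a gene, with each cell thinned to 1000 UMIs, gave the same order. For *Aqp2* it was 95.6% in control (90.8% to 98.9%, 5 libraries), 45.7% ± 13.0 in UIR and 5.78% ± 1.48 in UUO, and for *Aqp3* 82.4% ± 5.44, 37.9% ± 8.40 and 3.70% ± 1.10. *Aqp4* was detected in 34.6% ± 8.84, 7.86% ± 4.31 and 4.64% ± 4.49 of cells and *Avpr2* in 29.4% ± 4.86, 8.59% ± 1.24 and 2.66% ± 1.09. In all 8 of these comparisons with control the groups did not overlap and a two-sided exact permutation test gave p = 0.0357, the smallest that 5 against 3 libraries allow, which adjusted over 12 comparisons was 0.0536, so that 0 passed the adjustment and 8 had an unadjusted p under 0.05. The share of all genes that separate in this way was not measured. By edgeR 9.92% and 17.1% of genes were called lower in PC-like cells of UIR and UUO. Unthinned, the shares for *Aqp2* were 98.0%, 56.5% and 17.2% and for *Avpr2* 78.7%, 49.3% and 27.3%, and 9 of 12 passed (adjusted p = 0.0476, exact permutation test). Immune-like cells, which should lack these genes, had a thinned share of 0.558%, 0.580% and 0.236% for *Aqp2*, 0.257%, 0.531% and 0.415% for *Aqp3*, 0%, 0.0282% and 0.128% for *Aqp4* and 0.146%, 0.104% and 0.0755% for *Avpr2*. The UUO library with the fewest *Aqp4*-positive PC-like cells, replicate 3, had 0.380%. Median depths were 8283, 11314 and 14597 UMIs in PC-like and 3663, 3048 and 3100 in immune-like cells, and 265 of 284, 369 of 374 and 428 of 454 PC-like cells had the 1000 UMIs needed.

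Empty droplets carried *Aqp2* at 41.9 to 121 CPM in control, 56.8 to 83.6 in UIR and 7.12 to 16.4 in UUO libraries. The free RNA in PC-like cells, estimated from markers of other compartments, was 3.88% to 15.3% of UMIs in control, 5.71% to 10.4% in UIR and 3.28% to 6.34% in UUO.

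In CNT-like cells, the segment just upstream, *Aqp2* measured 583, 334, 1031, 652 and 904 CPM in control and 1101, 604 and 1027 in UIR. The groups overlapped, and the difference was 0.25 (SE 0.22, edgeR adjusted p = 0.608), where 6.52% of the genes tested were called. With cells gated by their own markers instead of by cluster, it was -1.26 (edgeR adjusted p = 0.0542). *Aqp3* measured 375 ± 136 CPM in control and 786, 540.1 and 516 in UIR, all 3 above the highest control library at 486, and did not pass (0.60, SE 0.21, edgeR adjusted p = 0.0962). It was called higher with no filter on low counts (0.55, edgeR adjusted p = 0.00685) and was -0.21 with the gate. The class itself differed between the groups, since its 5 CNT markers summed to 61894 to 72939 CPM in control and 41372 to 45034 in UIR, its PC markers to 1965 to 4236 and 4609 to 6859.7, and its immune markers to 19.9 to 34.6 and 199 to 383, none of which overlapped, and their part in the values was not tested. *Avpr2* measured 74.1 ± 32.5 and 58.0 ± 20.3 CPM (-0.33, SE 0.28, edgeR adjusted p = 0.594). The 14 CNT-like cells of UUO held a pooled 1036 CPM of *Aqp2*, with an exact Poisson interval of 845 to 1258 that covers counting error only. *Aqp11* in CNT-like cells, too low to be tested in that class alone, was 8.54 ± 3.89 CPM in control and 23.0 ± 2.54 in UIR.

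The difference between the UIR effect in PC-like and in CNT-like cells was itself tested in 1 model of both classes. It was -2.71 for *Aqp2* (SE 0.28, edgeR adjusted p = 1.18e-08), -2.66 for *Aqp3* (SE 0.25, edgeR adjusted p = 1.79e-09) and -1.997 for *Avpr2* (SE 0.32, edgeR adjusted p = 2.66e-05), with 9.17% of genes called. With PC1 in place of the pool it was -1.48 for *Aqp2* (SE 0.21, edgeR adjusted p = 8.46e-06) and -1.30 for *Aqp3* (SE 0.21, edgeR adjusted p = 9.48e-05), with 2.86% of genes called, and that of *Avpr2* did not pass (-0.93, SE 0.29, edgeR adjusted p = 0.0780). *Aqp4*, at 0 to 6 UMIs in each CNT-like pool, came to -5.83 with the pool (SE 0.89, edgeR adjusted p = 1.39e-05) and -5.53 with PC1 (SE 0.85, edgeR adjusted p = 3.25e-05), values that rest on those few UMIs. It passed the filter on low counts through the principal cell pools alone, so these values are not taken as a difference between the classes. *Aqp11* did not pass (-1.43, edgeR adjusted p = 0.238, unadjusted p = 0.0489). CNT-like cells were shallow, with median totals of 2032.5 to 7258.5 UMIs in control and 1406 to 2009 in UIR libraries, and the part of depth was not tested.

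**Figure D4:**
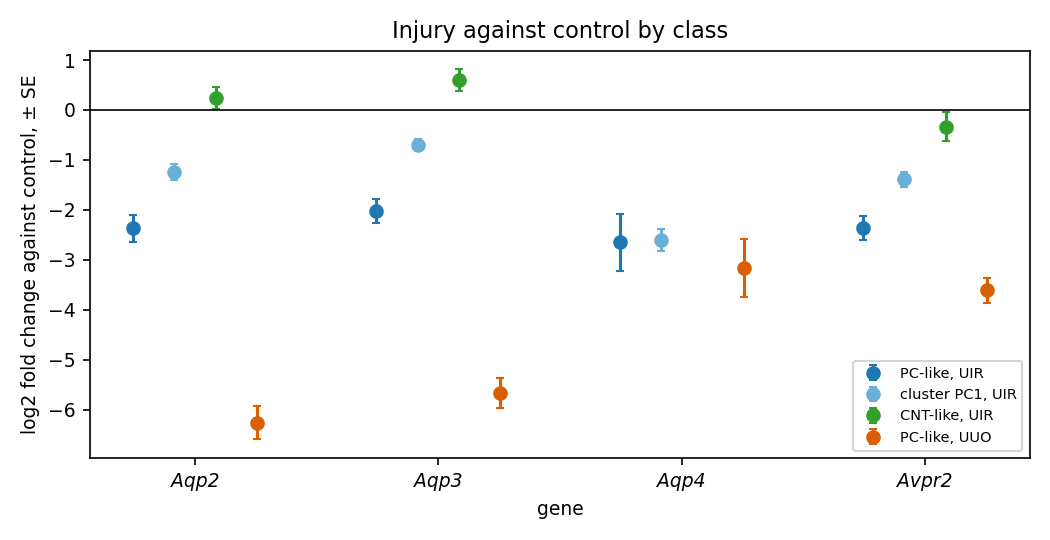
Log2 fold changes against control (points) with their SE (bars) from edgeR for *Aqp2*, *Aqp3*, *Aqp4* and *Avpr2* in PC-like cells of UIR, in cluster PC1 of UIR, in CNT-like cells of UIR (without *Aqp4*, which was not tested there) and in PC-like cells of UUO. In PC-like cells of UIR all 4 lie between -2.65 and -2.02, while *Aqp2* in CNT-like cells lies at 0.25.

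Genes that act with vasopressin in principal cells were taken from lists chosen for known roles. Of the cAMP signalling list 13 of 14 genes were tested in PC-like cells, with 4 lower and 0 higher in UIR and 6 lower and 0 higher in UUO, at median log2 fold changes of -0.32 and -0.42. *Prkar1a*, a regulatory subunit of protein kinase A, fell by 0.69 in UIR and 1.09 in UUO on the log2 scale, and the anchoring protein genes *Akap7* (-1.09 and -1.08) and *Lrba* (-0.98 and -1.41) fell in both. The adenylyl cyclase gene *Adcy6* fell in both (-0.56 and -0.42) and *Prkar2a* in UUO (-0.54), both named after their values were seen. *Pde4d*, a cAMP phosphodiesterase, fell in UUO (-0.83) and measured -0.19 in UIR. The most abundant gene of the list, *Gnas*, which encodes the stimulatory G protein subunit, measured -0.11 and -0.17 and did not pass. In PC1 none of the 13 was called in UIR. Over all 10381 genes tested in PC-like cells, 1207 were higher and 1030 lower in UIR and 1856 and 1780 in UUO, with medians of 0.02 and 0.03.

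Of the 8 collecting duct transcription factor genes, 4 were lower and 1 higher in UIR and 6 lower and 1 higher in UUO. *Elf5* fell by 1.40 and 1.91 on the log2 scale, *Tfcp2l1* by 1.01 and 1.55, *Gata2* by 0.86 and 1.65 and *Ehf* by 0.74 and 1.30. *Gata3* fell in UUO (-0.79) and did not pass in UIR (-0.39, edgeR adjusted p = 0.0701). The gene that rose in both was *Nfat5* (0.54 and 1.11), the tonicity-responsive factor, and *Tfap2b* fell in UUO (-0.89), both named after their values were seen. In PC1 the only one of the 8 called in UIR was *Elf5* (-1.32, SE 0.24, edgeR adjusted p = 0.000470), and *Gata2* measured 0.0025.

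The 12 genes of AQP2 vesicle trafficking and turnover split in direction, with 5 higher and 1 lower in UIR and 5 higher and 2 lower in UUO, at medians of -0.04 and -0.02. *Stx3*, an apical membrane fusion protein gene, rose by 1.14 and 1.37 on the log2 scale and *Ezr*, which encodes the membrane linker ezrin, by 0.66 and 0.98. *Vamp8*, a vesicle fusion protein gene, fell by 0.55 and 0.79, and *Vamp2* fell in UUO (-0.89). The other genes that rose in both, named after their values were seen, were *Rab11a* (0.44 and 0.74), *Nedd4* (0.43 and 0.70) and *Arpc5* (0.42 and 0.61). None of the 12 was called in PC1.

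Of the 8 genes of urea, sodium and potassium transport, 5 were lower and 0 higher in each injury. The potassium channel genes *Kcnj10* (-1.81 and -3.14) and *Kcnj1* (-1.50 and -2.79), the mineralocorticoid receptor gene *Nr3c2* (-1.29 and -2.32) and the sodium channel subunit gene *Scnn1a* (-1.40 and -2.04) fell in UIR and UUO. *Atp1b1*, the beta subunit gene of the sodium pump, fell by 0.57 and 0.96. In PC1 *Kcnj10* was lower (-0.74, edgeR adjusted p = 0.0426) and *Sgk1*, a kinase gene named after its values were seen, was lower (-1.51, edgeR adjusted p = 0.00691). Of the other receptors of principal cells on the lists, most of them known to oppose vasopressin, 4 of 6 were tested, and *Ednrb*, which encodes the endothelin B receptor (-2.50 and -3.81), and *Ptger1*, which encodes a prostaglandin E2 receptor (-1.96 and -5.02), fell in both injuries, and both also fell in PC1 of UIR (-1.49 and -0.92). *Ptger4*, whose receptor EP4 raises cAMP, measured 0.09 and 0.07 and did not pass.

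**Figure D5:**
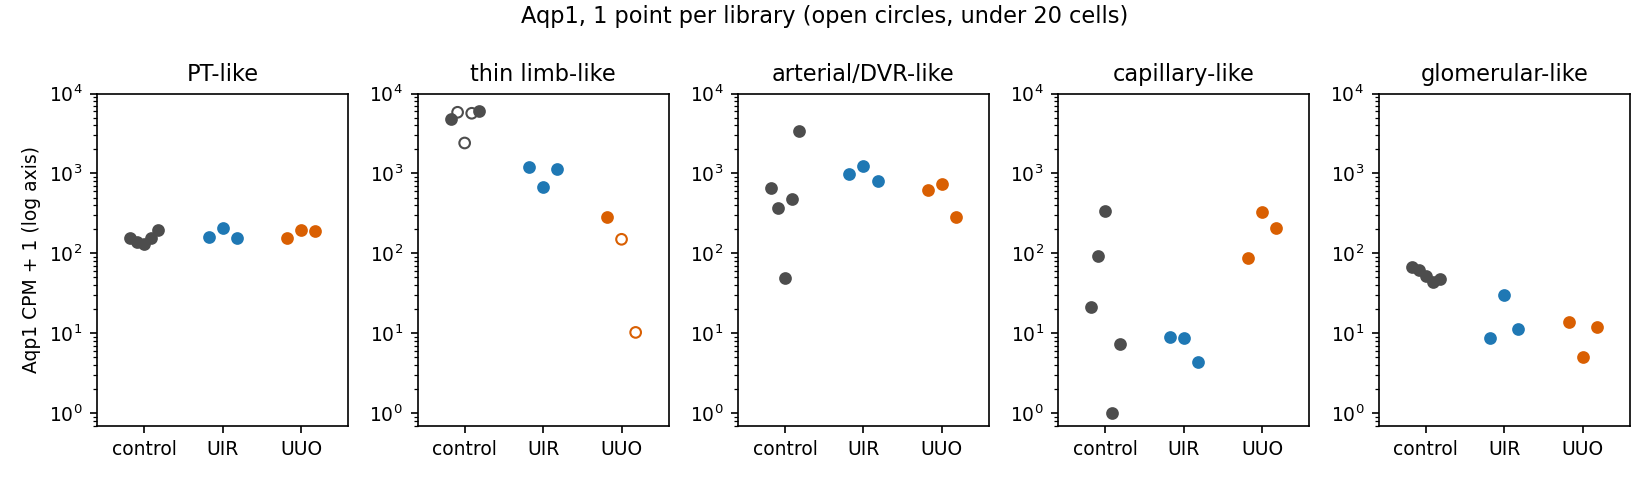
CPM + 1 of *Aqp1* on a log axis in PT-like, thin limb-like and 3 kinds of endothelium-like pools, 1 circle per library, coloured by group, with open circles for pools of fewer than 20 cells. PT-like pools overlap between groups, thin limb-like pools are lower in both injuries, and control replicate 5 stands above the other control libraries in arterial and vasa recta-like cells.

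*Aqp1* in PT-like cells measured 155, 139, 128, 156 and 193 CPM in control, 160.1, 207 and 156 in UIR and 156, 195 and 188 in UUO. All groups overlapped, and neither UIR (0.18, SE 0.14, edgeR adjusted p = 0.415) nor UUO (0.16, SE 0.16, edgeR adjusted p = 0.612) passed, where 14.2% and 10% of the genes tested in PT-like cells were called. With a mitochondrial limit of 15% in place of 30%, *Aqp1* was called higher in UIR (1.15, edgeR adjusted p = 0.00467). There were 4504 PT-like cells in control and 117 in UUO. Immune markers in the PT-like pools summed to 20.97 to 43.8 CPM in control, 299 to 1029 in UIR and 817 to 1179.6 in UUO (*Cd79a* at 0), and frTEC markers to 14.2 to 29.2, 77.5 to 152 and 219 to 258. Their part in the PT-like and segment values was not tested. Between segments *Aqp1* was 55.1 ± 8.47 CPM in S1-like, 180.2 ± 13.8 in S2-like and 314 ± 103 in S3-like control cells, which did not overlap between the 5 libraries of each.

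In thin limb-like cells *Aqp1* was at its highest. Control pools of 20 and 30 cells measured 4768 and 6074 CPM, and control pools of 12, 15 and 7 cells, left out of the test, measured 5822, 2403 and 5659. The UIR libraries measured 1197, 669.7 and 1141 CPM, below all 5 control pools, and the difference was -2.47 (SE 0.24, edgeR adjusted p = 3.79e-06), where 2.94% of genes were called lower. In the tested pools the 6 thin limb markers, of which *Sptssb* was at 0 in control, were also lower, at 8064 to 8255 CPM in control and 3894 to 4310.15 in UIR. Immune markers were higher (4.36 to 21.7 and 206 to 495 CPM, with 6 of 8 at 0 in control), as were frTEC markers (824 to 858 and 1023 to 1336), and the part of these lists in the difference was not tested. UUO pools of 61, 19 and 9 cells measured 287, 149 and 9.27 CPM, with a single pool large enough for a test, so none was made.

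In endothelium-like cells 1 control library decided the mean of *Aqp1*. Control measured 261.5, 175, 87.6, 216 and 1627 CPM, UIR 297, 448 and 331, and UUO 165, 255 and 126. Neither UIR (-0.46, SE 0.58, edgeR adjusted p = 0.858) nor UUO (-1.48, SE 0.61, edgeR adjusted p = 0.129) nor UUO against UIR (-1.02, edgeR adjusted p = 0.613) passed, where 1.99%, 12.6% and 2.62% of genes were called. Without control replicate 5, at 1627 CPM, the UIR difference was 0.89 and the UUO difference -0.13, and neither passed, while UUO against UIR then did (-1.03, edgeR adjusted p = 0.0491). UUO against UIR was also called with the replicate block. With each cell thinned to 1000 UMIs, *Aqp1* was detected in 7.02%, 5.95% and 4.31% of endothelium-like and 11.6%, 12.4% and 14.2% of PT-like cells (control, UIR and UUO), against 0.928%, 0.596% and 0.307% of immune-like cells. Unthinned, these means were 15.5%, 10.7% and 8.95% in endothelium-like and 50.4%, 49.3% and 58.9% in PT-like cells. Every UUO library then lay below every control library in endothelium-like cells, and this passed (two-sided exact permutation test, adjusted p = 0.0476). It also passed at 2000 UMIs (9.32% and 5.92%, exact permutation test, adjusted p = 0.0476) but not at 1000 (exact permutation test, adjusted p = 0.19048). Marker lists of other classes moved with the groups in the endothelium-like pools, though a list can hold genes that endothelium expresses too. PT markers, of cells that also express *Aqp1*, summed to 181 to 509.9 CPM in control, 79.5 to 188 in UIR and 8.83 to 24.97 in UUO, podocyte markers to 983 to 1195.6, 808 to 894 and 550.2 to 819, and immune markers, with 3 of 8 at 0 in control, to 80.8 to 307, 387 to 469.5 and 401 to 749. The thin limb list, of the class highest in *Aqp1*, ran from 26.4 to 263 CPM in control, 53.1 to 89.4 in UIR and 57.6 to 75.2 in UUO. The part of these lists in the *Aqp1* values was not tested.

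The kinds of endothelium differed. In arterial and descending vasa recta-like cells, the known vascular site of AQP1, control measured 648, 367, 48.8, 481 and 3351 CPM, UIR 986, 1236 and 814 and UUO 614, 747 and 285, which overlapped and did not pass (-0.05, edgeR adjusted p = 0.997, and -0.93, edgeR adjusted p = 0.489, with 1.73% and 4.86% of genes called). Without control replicate 5 these differences were 1.27 (edgeR adjusted p = 0.0554) and 0.39 (edgeR adjusted p = 0.692). In capillary-like cells the control libraries ranged from 0 to 342 CPM, UIR from 3.41 to 8.04 and UUO from 86.3 to 328. These overlapped control in both injuries although edgeR called UIR lower (-3.15, SE 0.84, adjusted p = 0.0225, with 1.96% of genes lower) and UUO higher (1.81, SE 0.50, adjusted p = 0.0115, with 6.2% of genes higher) and UUO above UIR (4.96, SE 0.61, adjusted p = 7.33e-07, with 1.46% of genes higher). The control library at 342 CPM was replicate 3, the lowest of the 5 in arterial-like cells, and without it the UIR call was lost (-2.07, edgeR adjusted p = 0.233). The UIR call was also lost without control replicate 2 (-2.94) or UIR replicate 3 (-2.84), and the UUO call without control replicate 1 (1.26), control replicate 4 (1.53) or UUO replicate 2 (1.26), while UUO against UIR was called with each of the 11 libraries left out in turn (4.43 to 5.32). In glomerular-like cells *Aqp1* was low and fell in both injuries, from 42.7 to 66.4 CPM in control to 7.83 to 29.6 in UIR (-1.89, SE 0.38, edgeR adjusted p = 0.00360) and 4.01 to 12.7 in UUO (-2.64, SE 0.37, edgeR adjusted p = 4.98e-06), with 1.28% and 5.23% of genes called lower, the first lost without UIR replicate 1 (-1.40, edgeR adjusted p = 0.0742). Empty droplets held *Aqp1* at 39.1 to 202 CPM in control, 33.3 to 94.7 in UIR and 23.9 to 54.3 in UUO, a range that overlapped the glomerular-like values in control and lay above all of them in UIR and UUO. For endothelium-like cells the free RNA estimate from markers of other compartments came to 22.3% of UMIs for control replicate 1. It came to 69.2% to 80.2% for the other 4 control replicates, 24.2% to 43.2% for UIR and 19.4% to 27.2% for UUO. These estimates are not taken as shares of free RNA, since the lists can hold genes that endothelium expresses too. *Aqp2* measured 1.47 to 10.1 CPM in control endothelium-like pools, where control empty droplets held 41.9 to 121. In the 4 control replicates with estimates of 69.2% to 80.2%, empty droplets held *Aqp2* at 41.9 to 59.2 CPM. The part of free RNA in the endothelial differences by kind was not tested.

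*Aqp7*, an aquaglyceroporin of the proximal straight tubule, measured 9.43, 8.07, 7.59, 8.62 and 12.3 CPM in control PT-like cells, 10.5, 10.2 and 8.80 in UIR and 4.46, 6.86 and 20.4 in UUO. All groups overlapped and none passed (0.09, 0.21 and 0.13 for UIR, UUO and UUO against UIR, edgeR adjusted p = 0.842, 0.811 and 0.979). In S3-like cells it stood at 30.8 ± 9.84 CPM in control and 25.1 ± 3.74 in UIR.

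*Aqp11*, an intracellular channel of proximal tubule cells, was even across control PT-like pools at 54.1 ± 2.01 CPM. The UIR libraries, at 47.9, 40.3 and 44.9 CPM, lay below all control libraries, which ranged from 52.2 to 56.9, and the UUO libraries measured 58.0, 41.1 and 26.7. Neither difference passed (-0.29, SE 0.12, edgeR adjusted p = 0.131, and -0.49, SE 0.19, edgeR adjusted p = 0.120). This depended on the setting, since *Aqp11* was called lower under 3 of 24 alternatives in UIR and 5 of 21 in UUO, S2-like cells included. In S2-like cells alone, chosen as a separate pool after the data were seen, *Aqp11* was lower in UIR (-0.43, SE 0.13, edgeR adjusted p = 0.0360) and UUO (-0.65, SE 0.20, edgeR adjusted p = 0.0414), with 5.93% and 4.51% of genes called lower. Between UUO and UIR edgeR called no gene in PT-like cells (0% of 11758, with 868 genes at an unadjusted p under 0.05), and DESeq2 called 16 higher and 5 lower, without *Aqp1*, *Aqp7* or *Aqp11* (DESeq2 adjusted p = 0.995, 0.981 and 0.974).

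*Aqp4* was also found at low level in S3-like proximal tubule cells, at 29.3, 9.18, 2.19, 25.2 and 49.8 CPM in control and 6.96, 4.36 and 0 in UIR. UUO pools of 4, 4 and 7 cells, not tested, measured 0, 0 and 156 CPM (12 UMIs). Control and UIR overlapped, and edgeR called UIR lower (-2.61, SE 0.65, adjusted p = 0.0180, with 2.6% of genes lower). This was not among the 14 places.

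*Aqp6* encodes an anion-permeable channel in vesicles of type A intercalated cells. In type A intercalated-like (IC-A-like) cells the UIR libraries measured 727, 856 and 892 CPM and the UUO libraries 435, 622 and 639.9. All UUO libraries lay below all UIR libraries, and the difference did not pass (-0.64, SE 0.16, edgeR adjusted p = 0.132, with 0.257% of genes called). It passed under 8 alternatives, among them DESeq2 (-0.64, adjusted p = 0.0465), no filter on low counts (-0.63, edgeR adjusted p = 0.0132) and the replicate block (-0.65, edgeR adjusted p = 0.00786), and was 0.02 at a mitochondrial limit of 15%. Control pools of only 4 to 18 cells measured 1309 to 2342 CPM, above all injured pools, and with fewer than 20 cells each they were not tested. In IC-B-like cells *Aqp6* was 44.0 ± 30.4 CPM in control and 59.6 ± 36.5 in UIR (0.36, edgeR adjusted p = 0.781, with 6.23% of genes called), and *Aqp3* 169 ± 112 and 155 ± 17.7 (-0.41, edgeR adjusted p = 0.569).

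*Aqp5*, an apical water channel known from glands and from type B intercalated cells, had 0 UMIs among 689636 in control IC-B-like cells, which allows up to 4.35 CPM. In PC-like cells 6 UMIs were counted in control, 25 in UIR and 25 in UUO, or 2.20, 4.98 and 3.22 CPM pooled, with overlapping exact Poisson intervals, and the gene did not reach the filter on low counts.

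*Avpr2* in TAL-like cells, where V2 signalling acts on salt transport, measured 10.5, 14.6, 18.7, 13.8 and 8.17 CPM in control, 10.8, 10.5 and 9.99 in UIR and 11.5, 11.9 and 11.02 in UUO. All injured libraries lay within the control range, and no comparison passed (-0.53, -0.39 and 0.15, edgeR adjusted p = 0.197, 0.382 and 0.936), although 32.6%, 37% and 2.11% of the genes tested in TAL-like cells were called. Against control, *Avpr2* was called lower there under 2 of 20 alternatives in UIR and 1 of 20 in UUO. *Avpr1a*, the V1a receptor gene, was measured in IC-A-like cells at 141 to 238 CPM in the control pools of 4 to 18 cells, 288 to 344 in UIR and 241 to 399.7 in UUO libraries, with every control pool below every injured library. Those control pools were too small to be tested, and UUO against UIR did not pass there (-0.06, edgeR adjusted p = 0.987). At a low level in TAL-like cells *Avpr1a* was called lower in UIR (-3.16, SE 0.59, edgeR adjusted p = 0.000177) and UUO (-4.44, SE 0.71, edgeR adjusted p = 2.29e-05), and it had 5 UMIs in all PC-like cells. The TAL-like pools themselves differed between control and both injuries. Their TAL markers summed to 17857 to 22381, 12499 to 13031 and 7398 to 8647 CPM, those of the distal convoluted tubule were higher in control (898 to 1854) than in UIR (267 to 379.8) or UUO (192 to 313), and PT markers ran from 157 to 309, from 45.2 to 139 and from 5.93 to 14.9. PC markers, of the class highest in *Avpr2*, were lower in control (189 to 302) than in UIR (494 to 609) or UUO (593 to 783). CNT markers ran from 3936 to 4799, from 2468 to 3176 and from 1109 to 1860. Immune markers, with 5 of 8 at 0 in control, were 4.86 to 13.6 CPM in control against 122 to 424 in UIR and 146 to 306 in UUO, and frTEC markers 56.2 to 132 against 385 to 498 and 456 to 632. Median mitochondrial shares were 20.2% to 24.6%, 9.37% to 11.2% and 7.91% to 8.88%, median totals 4485 to 6155, 9868.5 to 13905.5 and 12629 to 16643.5 UMIs per cell, and the part of these in the TAL-like values was not tested. *Aqp8* (82 UMIs, 72 of them in PT-like cells), *Aqp9* (275, 266 in immune-like cells), *Mip* (3) and *Avpr1b* (0) were rare or absent among the kept and named cells.

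The genes with the level most like that of each member over 11 classes of control cells were named by Pearson's r of mean log2(CPM + 1), as a description of points that share their libraries. For *Aqp2* they were *Spock3* (0.99), *Fanca* (0.98) and *Ptger1* (0.98), and for *Avpr2* *Fanca* (0.93), *Aqp2* (0.93) and *Hsd11b2* (0.91). *Aqp3* was nearest to *Rhbg*, *Mcoln3* and *Kif26b* (0.93 each) and *Aqp4* to *Elf5* (0.98), *Nipal1* (0.97) and *Muc20* (0.96). *Aqp1* was nearest to *Podn* (0.94), *Rnf6* (0.92) and *Galnt14* (0.90), *Aqp7* to *Slc22a2* (0.97), *Slc7a9* (0.97) and *Tmigd1* (0.96), and *Aqp11* to *Gchfr* (0.86), *Tmem252* (0.84) and *Glyctk* (0.84). *Aqp6* was nearest to *Tmem52* (0.96), with no control pool of IC-A-like cells among the 11 classes, and the values of *Aqp5* were near 0 in all of them.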

How the data were processed

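Single-cell RNA-seq libraries of control (5), UIR (3) and UUO (3) mouse kidneys were used. The deposited files are raw UMI counts per gene for all barcodes, made by the authors with Cell Ranger 3.1.0, per the labels, on mm10, before their own removal of ambient RNA and doublets.

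Cells were called against each library's empty-droplet profile (at least 500 UMIs, false discovery rate 0.01, 10000 simulations) and limited to 30% mitochondrial and 5% hemoglobin UMIs and at least 200 genes, and the 7.5% of cells with the highest doublet scores were removed. Clusters (2000 variable genes, 40 principal components, 30 at the second level, 20 neighbors, Leiden resolution 1, scanpy 1.11.5) were built without the genes described, and *Slc14a2* and *Ptger3* served both as naming markers and on pathway lists. A cluster took a name at a marker score of at least 0.3 with a lead of 0.05, and a distal name at a proximal tubule score under 0.35, limits set after marker tables and some member values had been seen. UMIs were summed per library and class (at least 20 cells) and tested with edgeR 4.0.16 (quasi-likelihood, TMM normalization, filterByExpr, the 3 groups in 1 model, R 4.3.3), after the script was tested on simulated data. CPM are summed UMIs per 1000000 of the pool, without TMM. Intervals are exact Poisson at 95%, a count of 0 allows up to 3 counts, and both cover counting error only. Alternatives were RLE normalization, DESeq2 1.42.0, other filters, clusterings and gates, free RNA subtraction, leaving out each library and a replicate block.

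Named genes were all 9 members, per pathway list up to 4 called genes by size of change and the 2 most abundant, and per member the 3 genes of most similar level (at least 50 CPM in 1 class). A single gene of the transport list that this rule names is not reported here. The members and lists were chosen with earlier results of these data known.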

Additional observations from a re-analysis of the deposited data

Results flagged for a closer look

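Of 11 groups of 5 control libraries examined for a library far from the others, 3 held one, where chance alone gives about 1 in 20. *Aqp1* in endothelium-like cells was 1627 CPM in control replicate 5 against 87.6 to 261.5 in the others. *Aqp2* in PC-like cells was 6022 CPM in control replicate 1 against 8935 to 10069 in the others. *Aqp3* in the same pool of control replicate 1 was 2163 CPM against 2658 to 2766. Control replicate 1 was the only library of set Ctrl. Of its called barcodes 57.0% were over the mitochondrial limit, against 75.8% to 78.9% in the other control libraries. Its empty droplets held *Aqp2* at 121 CPM, against 41.9 to 59.2 in the others. The part of set and quality in these values was not tested.

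The injuries differed from each other in PC-like cells, by edgeR's test of the difference, for *Aqp2* (log2 fold change of UUO against UIR -3.89), *Aqp3* (-3.65) and *Avpr2* (-1.25). Within PC2 none of these genes was called, and the *Avpr2* call was also lost in other settings given below. The effect of UIR differed between PC-like and CNT-like cells, by the test of that difference, for *Aqp2* (-2.71), *Aqp3* (-2.66) and *Avpr2* (-1.997). With PC1 in place of the 3 clusters these differences were -1.48, -1.30 and -0.93, of which that of *Avpr2* did not pass (edgeR adjusted p = 0.0780). *Aqp4* (-5.83, and -5.53 with PC1) had 0 to 6 UMIs in each CNT-like pool and passed the filter through the principal cell pools alone. Its values are not taken as a difference between the classes. With cells gated by their own markers *Aqp2* in CNT-like cells of UIR was -1.26 against control (edgeR adjusted p = 0.0542), where PC1 was -1.24, and the difference between the classes was not tested with that gate.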

How the results depend on the processing

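The 5 places called in UIR, 4 in UUO and 3 between UUO and UIR numbered 5 to 5, 4 to 5 and 3 to 5 when each library was left out in turn, and were not the same places throughout, since *Avpr2* was lost in 1 setting below. With a mitochondrial limit of 15%, which left 4 and 1 places past the filter, 1 place was called in UIR (*Aqp1* in PT-like cells, higher at 1.15, edgeR adjusted p = 0.00467) and 0 in UUO. At a limit of 50% 8 places were called in UUO, and 7 with cells gated by their own markers. The share of all genes called is not given here for these counts or those that follow, so they are not results about the members. Between UUO and UIR 5 places were called with no filter on low counts, with at least 1000 UMIs per cell, without doublet removal, with cells gated by their own markers, with the replicate block, without control replicate 5 and without UIR replicate 1, and 0 with cluster PC2 alone, chosen after seeing the data. The thinned shares gave 0 of 12 past the threshold, 9 unthinned and 9 at 2000 UMIs. With a library left out the count was 0 to 0, where the smallest adjusted p was 0.0762 to 0.107, which says nothing of stability. Of 824 single values under an alternative, 733 kept direction and call, 47 gained a call, 6 lost one and 38 turned sign.

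*Aqp2*, *Aqp3*, *Aqp4* and *Avpr2* in PC-like cells stayed lower and called against control in all alternatives that could be fitted. At a mitochondrial limit of 15% these comparisons with control could not be fitted. The *Avpr2* call between UUO and UIR was lost at a mitochondrial limit of 50% (-0.67) or 15% (-1.08), without UIR replicate 2 (-1.03) and in PC2 (-0.49). Values that turned sign were uncalled under the alternative, except in capillary-like cells. At a mitochondrial limit of 50%, they were *Aqp1* (-0.093) and *Aqp7* (-0.024) in PT-like cells of UIR and, for UUO against UIR, *Aqp1* in PT-like (0.27) and *Aqp4* in PC-like cells (0.28), and at 15% *Aqp6* in IC-A-like cells (0.018). With cells gated by their own markers they were, in UIR, *Aqp2* (-1.26) and *Aqp3* (-0.21) in CNT-like and *Aqp7* (-0.078) and *Aqp11* (0.0064) in PT-like cells, in UUO *Aqp1* (-0.19) and *Aqp7* (-0.23) in PT-like and *Avpr2* (0.24) in TAL-like cells, and *Aqp7* (-0.16) for UUO against UIR. By segment, chosen after seeing the data, they were *Aqp1* in S1-like (-0.29) and S2-like (-0.17), *Aqp7* in S1-like (-0.72) and S3-like (-0.47) and *Aqp11* in S3-like cells (0.047) of UIR and *Aqp1* in S2-like cells of UUO (-0.27). In capillary-like cells, also chosen after seeing the data, *Aqp1* was called at 1.81 in UUO and 4.96 for UUO against UIR. For UUO against UIR *Aqp1* in PT-like cells was 0.019 with RLE, 0.018 with DESeq2, 0.025 with the replicate block, 0.033 at 1000 UMIs, 0.084 without doublet removal, 0.045 at resolution 2 and 0.015 with free RNA subtracted. With each library left out in turn, the uncalled values that turned sign ranged for *Aqp1* from -0.72 to 0.89 in endothelium-like cells of UIR (0.89 without control replicate 5) and from -0.15 to 0.14 in PT-like cells for UUO against UIR (above 0 without UIR replicate 2 or UUO replicate 1). Leaving out UUO replicate 3 gave the value of changed sign for *Aqp7* (-0.75 to 0.50 in UUO and -0.84 to 0.42 for UUO against UIR), *Aqp11* (-0.50 to 0.069) and, in PC-like cells, *Aqp4* (-1.35 to 0.021) for UUO against UIR. The share difference of *Aqp1* ranged from -0.87 (without UIR replicate 2) to 1.87 percentage points in PT-like cells of UIR, was -1.11 unthinned, and ranged from -2.003 to 0.13 (without control replicate 5) in endothelium-like cells. The causes were not tested. Without control replicate 3 *Aqp1* in endothelium-like cells was called lower in UUO (-1.74).

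Same-numbered UIR and UUO libraries correlated at 0.215, 0.175 and -0.045 in PC-like and 0.351, 0.023 and 0.0402 in endothelium-like cells. In PT-like and TAL-like cells number 1 was again highest (0.123 and 0.367), and in no class did all 3 pass 0.1. The numbers follow the order of deposit, and number 1 is the library of each injury named without a number. Differently numbered libraries were not compared, so these values cannot decide on pairing, and the main test took no pairs. Whether the libraries of number 1 share a batch, which the labels do not give, was not tested. The replicate block added *Aqp6* in IC-A-like (-0.65) and *Aqp1* in endothelium-like cells (-1.06), and *Aqp6* was called under 8 alternatives in all. Pools of under 20 cells (UUO in CNT-like and PC1, control in IC-A-like cells) limit what could be compared, and where leaving out a library left 1 thin limb-like control pool, it was assumed to vary like the others.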

Other observations

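Clusters that took no name also held these genes. A cluster of 302 cells (30 control, 213 UIR and 59 UUO) with a median of 40820 UMIs per cell, whose highest marker lists were those of IC-B and PC, measured 428 CPM of *Aqp2*, 322 of *Aqp3* and 267 of *Aqp6*. A cluster of 441 cells, 337 of them from UIR, with the lists of distal convoluted tubule and PC highest, measured 65.1 CPM of *Aqp3* and 12.6 of *Aqp2*. A cluster of 1628 cells with a median of 748 UMIs, 1153 of them from UIR, 46 from control and 429 from UUO, with the lists of PC and frTEC highest and left out of the PC-like pools, measured 50.1 CPM of *Aqp2*, where empty droplets held 41.9 to 121 CPM in control, 56.8 to 83.6 in UIR and 7.12 to 16.4 in UUO libraries.

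Some low values outside the 14 places also passed the test. *Aqp11* in PC-like cells was 9.14, 11.5, 0, 5.68 and 12.4 CPM in control and 4.17, 2.49 and 1.65 in UUO (-1.68, SE 0.51, edgeR adjusted p = 0.0147). *Aqp3* in PT-like cells was 14.5 ± 1.49 CPM in control and 12.2, 6.79 and 7.45 in UIR (-0.76, edgeR adjusted p = 0.0138), and empty droplets held it at 14.1 to 55.8 CPM in control and 24.6 to 42.2 in UIR libraries. *Aqp2* in TAL-like cells was 2.43, 38.7 and 5.50 CPM in UIR and 0.377, 0 and 0 in UUO (-6.42, edgeR adjusted p = 0.00260), with 56.8 to 83.6 and 7.12 to 16.4 CPM in empty droplets of the same groups.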
